A study of Mus musculus with 6 samples.

Results

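The nuclear genes of the mitochondrial respiratory chain were described in whole epididymis of wild-type (WT) mice and of mice without occludin (Ocln-KO). They were chosen by symbol alone: all listed genes whose symbol begins with Nduf, Uqcr or Atp5, the genes Sdha to Sdhd, and those that begin with Cox4 to Cox8, leaving out symbols that contain "-ps". This gave 92 of the 57127 listed genes. By the complex their products belong to, 36 were subunits of complex I, 7 were assembly factors of complex I (the Ndufaf genes), 4 belonged to complex II, 8 to complex III, 20 to complex IV and 17 to complex V. Ndufa4 and Ndufa4l2 were counted under complex IV, in which Ndufa4 resides, although their symbols place them in complex I. Atp5s and Atp5sl are kept under complex V by symbol only, since neither is a structural subunit.

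The series held 6 libraries of whole epididymis from adult C57BL/6 mice, 3 of WT and 3 of Ocln-KO mice, the latter bred from heterozygous pairs and carrying a knockout of the gene for the tight junction protein occludin. What was asked of them was how the transcriptome of the whole organ differs without occludin. The methods speak both of 3 pairs of mice and of pooled RNA, so n counts libraries, and if a library is not 1 mouse, the p-values measure only the spread between these libraries. The targeted gene Ocln had 85.9, 78.8 and 91.8 CPM (a gene's count scaled to 1000000 counts of the TMM-adjusted library size) in WT against 15.1, 15.3 and 14.9 CPM in Ocln-KO, so the libraries followed their labels while some Ocln RNA was still counted.

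The respiratory chain passes electrons from NADH (complex I) and succinate (complex II) through ubiquinone, complex III and cytochrome c to complex IV, which reduces oxygen, and the proton gradient built on the way drives ATP synthesis by complex V. All complexes but complex II combine subunits from the nuclear genome with subunits from the mitochondrial genome, so that both sets of genes are needed to build them. In the epididymis, clear cells, which acidify the lumen, are known for being rich in mitochondria.

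Nuclear chain genes were lower in Ocln-KO across the set. Of the 89 members that passed the count filter, 25 fell and 0 rose at an adjusted p under 0.05 by the quasi-likelihood test of edgeR, adjusted after Benjamini-Hochberg over the whole table, where 5.04% of all 19691 tested genes fell and 3.91% rose. At an unadjusted p under 0.05, 50 members were lower and 2 were higher, against 15.2% of all tested genes lower and 2734 of the 19691 higher. The fold change was negative for 83 of the 89 members, with a median log2 fold change of -0.34 beside 0.01 over all tested genes. The differences were small: no called member had less than 0.5 times the WT level, a size that 1.70% of all tested genes reached among the calls (335 genes), and members ran from -1.74 (Uqcrc1) to 0.71 (Atp5k), neither of which passed the test. In bulk tissue, fewer cells of a type and less RNA per cell cannot be told apart.

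The 3 members that did not pass the filter were Cox6a2, Cox8b and Ndufa7. Cox6a2 and Cox8b, the muscle isoforms of subunits 6A and 8, stayed under 0.3 CPM in each library. Ndufa7, an accessory subunit of complex I, also stayed under 0.3 CPM, although the other subunits of its module were abundant; no near-identical copy or overlapping exon is annotated for it, and the cause was not tested.

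Summed over all members, WT libraries held 6422, 6118 and 6683 CPM and Ocln-KO libraries 4623, 5101 and 4744 CPM, or 75.3% of the WT mean. Each Ocln-KO library thus lay below each WT library, and the members took 0.595% to 0.652% of all counts in WT and 0.484% to 0.515% in Ocln-KO. Of the 89 tested members, 52 had each Ocln-KO library below each WT library, where 19.4% of all tested genes did, and 2 (Ndufaf2 and Ndufaf5) had each above, where 16.9% did. Among the Ocln-KO libraries replicate 2 was nearest to WT, with a median member deviation of -0.25 (log2, from the WT mean) against -0.46 in replicate 1 and -0.41 in replicate 3. Library depth went with genotype: 30646424 to 32776523 counts in Ocln-KO and 35066211 to 38870780 in WT, and the part of this difference in the result was not tested.

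**Figure D1:**
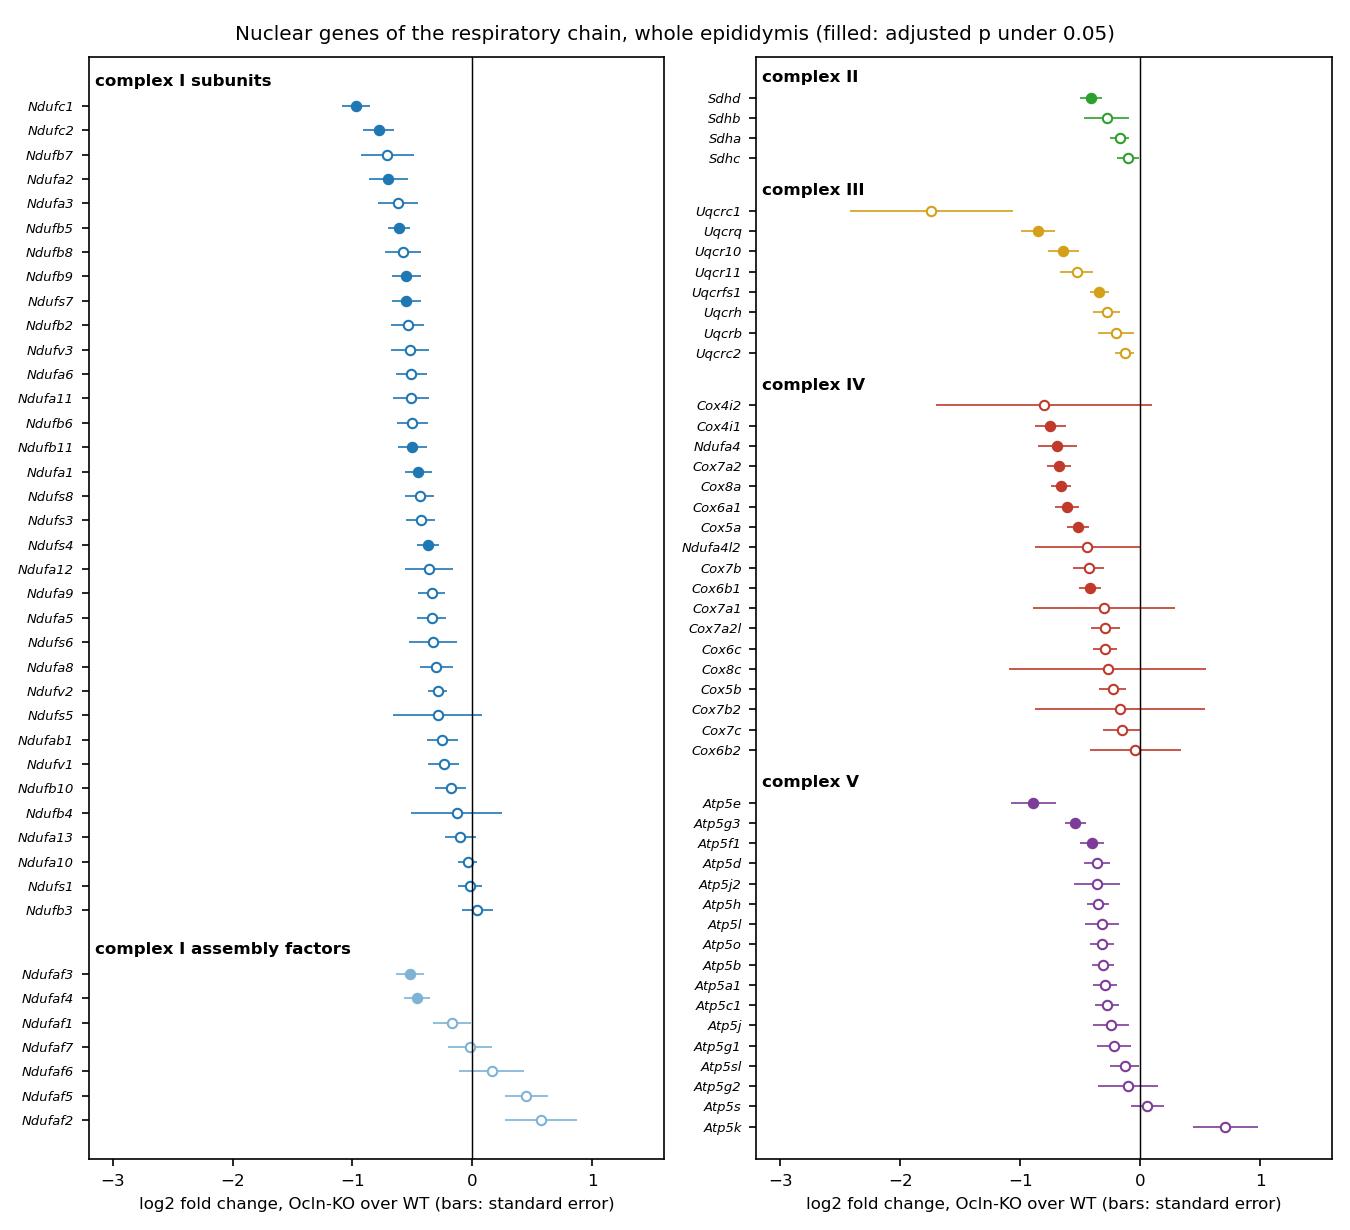
Log2 fold change (Ocln-KO over WT, 3 libraries each) of all but 1 of the 89 tested members, ordered within each complex; bars are standard errors and filled points have an adjusted p under 0.05. 25 filled points lie to the left of 0 and 0 to the right, and the widest bars belong to the tissue-restricted isoforms of complex IV and to Uqcrc1, which had few counts.

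The test, the scaling and the gene length moved the number of calls by over 1.5 times. A block on replicate number in edgeR, the fit for libraries paired by number, left 0 calls. In it 49 members were lower at an unadjusted p under 0.05. No share of all tested genes is given for this fit, so these counts have no baseline. DESeq2 called 40 members lower, all 25 included, where it called 8.67% of all tested genes lower, and edgeR scaled by total counts alone called 16, all among the 25, with 3.42% of all tested genes lower. An offset for each library that removes a smooth trend on exonic length left 12, all among the 25, with 4.42% of all tested genes lower in that fit and a median of -0.25 over the members. Leaving out a WT library removed nearly all calls, as it did over the whole table: 0 members were lower without WT replicate 1 (0.0935% of all tested genes), 2 without WT replicate 2 (0.714%) and 0 without WT replicate 3 (0.197%), while 47, 50 and 45 members were lower at an unadjusted p under 0.05. For the unadjusted threshold the share of all tested genes is given only for the main fit (15.2%). Without Ocln-KO replicate 1, 2 or 3 the calls were 15, 15 and 13, with 4.30%, 1.68% and 4.63% of all tested genes lower, and the median over the members stayed between -0.42 and -0.29 in all 6 of these fits.

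Upstream sequences are shown for 4 members that fell, because the promoters of chain genes are known to carry sites for the factors NRF1, GABP (an ETS factor), ERRα and YY1, whose own genes are described further on. RefSeq promoters (GRCm38.p6, 250 bases before to 50 after each start) were at hand for 73 of the 92 members, and each motif was sought on both strands. The 4 are those of the 15 called members with the smallest p that had a match before a start. Some of the other members had no promoter entry. The windows run 5′ to 3′ along the gene and capitals mark the matching letters.
Cox6a1, subunit 6A of complex IV, chr5:115349083-115349150, minus strand, NRF1 core on both strands: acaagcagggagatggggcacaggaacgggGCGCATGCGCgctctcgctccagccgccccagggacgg
Sdhd, membrane anchor of complex II, chr9:50603859-50603925, minus strand, ETS: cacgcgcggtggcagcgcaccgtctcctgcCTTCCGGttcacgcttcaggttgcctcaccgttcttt
Atp5e, epsilon subunit of complex V, chr2:174464167-174464233, minus strand, ETS: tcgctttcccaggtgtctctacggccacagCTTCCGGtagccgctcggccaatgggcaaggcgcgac
Atp5g3, c subunit of complex V, chr2:73911342-73911408, minus strand, ERR half-site: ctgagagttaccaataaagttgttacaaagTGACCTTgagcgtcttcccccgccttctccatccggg

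The NRF1 core letters GCGCATGC were found in 12 of the 73 members (16.4%), against 3.05% of all 27025 genes with a promoter and 3.94% of the protein-coding ones. The ETS letters CCGGAAG were found in 17 members (23.3%), against 9.93% of all genes and 12.9% of the protein-coding ones. The ERR half-site AAGGTCA was found in 8 members (11.0%, against 5.38% of all genes) and the YY1 letters AAGATGG in 10 (13.7%, against 7.28%); the ETS and YY1 letters share AAG at their ends, so that 1 run can hold both. The medians with and without a motif were given no test: members with the NRF1 core letters had a median log2 fold change of -0.39 and those without -0.35, and for the ETS letters the medians were -0.42 and -0.34. For the ERR half-site they were -0.36 and -0.35, and for the YY1 letters -0.36 and -0.34. These matches describe letters in the window and not binding.

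Complex I, the NADH dehydrogenase, had 35 tested subunits. Of these 9 fell and 0 rose, where 5.04% of all tested genes fell and 3.91% rose, and the median log2 fold change was -0.43. Their summed level was 1591, 1534 and 1738 CPM in WT against 1162, 1332 and 1171 CPM in Ocln-KO. The member with the smallest p of the whole set was Ndufc1, a small accessory subunit of the membrane arm, with 27.5, 23.9 and 26.7 CPM in WT against 12.1, 14.5 and 13.2 CPM in Ocln-KO. Its Ocln-KO libraries were close to one another at 51.0% of the WT mean, a log2 fold change of -0.97 ± 0.12 (SE, n = 3 per genotype, edgeR adjusted p = 0.0107). Ndufc2, which lies beside Ndufc1 in the complex, had 64.2, 56.6 and 64.8 CPM in WT against 36.1, 41.7 and 30.1 CPM in Ocln-KO (log2 fold change -0.78 ± 0.13, edgeR adjusted p = 0.0208). Ndufb5 had 63.2, 57.5 and 63.4 CPM against 37.4, 43.6 and 39.8 CPM (log2 fold change -0.61 ± 0.09, edgeR adjusted p = 0.0184). Both are accessory subunits of the membrane arm, and in both the genotypes did not overlap. Ndufb9, also of the membrane arm, had 80.8, 74.8 and 93.2 CPM in WT against 60.3, 59.4 and 50 CPM in Ocln-KO (log2 fold change -0.55 ± 0.12, edgeR adjusted p = 0.0337). Ndufs7, the core subunit that holds the last iron-sulfur cluster before ubiquinone, had 32.5, 29.0 and 36.2 CPM against 23.0, 23.7 and 20 CPM (log2 fold change -0.55 ± 0.12, edgeR adjusted p = 0.0351). Every Ocln-KO library of these 2 genes was below every WT library, and Ocln-KO replicate 3 was the lowest for both.

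By structural module, the calls in complex I were 6 of 19 in the membrane arm, 2 of 8 in the N module that oxidises NADH, and 1 of 7 in the Q module that reduces ubiquinone, with medians of -0.50, -0.34 and -0.43. Over all tested genes 5.04% fell, and 1 call in 7 genes cannot be told from that share. The 7 nuclear core subunits, which carry the flavin and the iron-sulfur clusters, had 1 call (Ndufs7) and a median of -0.29, and the 28 tested accessory subunits 8 calls and a median of -0.47; the difference between them was not tested. Within the core, Ndufs1, the largest iron-sulfur subunit, had 59.0, 56.1 and 50.6 CPM in WT against 50.5, 53.3 and 59.4 CPM in Ocln-KO. Its libraries overlapped fully (log2 fold change -0.02 ± 0.10, edgeR adjusted p = 0.909), and its sign turned with total counts (0.06). Ndufv1, which binds NADH and FMN, had 61.6 ± 10.3 CPM in WT against 52.1 ± 2.73 in Ocln-KO (SD, n = 3; log2 fold change -0.24, edgeR adjusted p = 0.247). It did not pass the test, although its genotypes did not overlap. The highest fold change among the subunits was that of Ndufb3, a membrane-arm subunit, at 0.04 ± 0.13 (18.6 ± 1.51 CPM in WT, 19.2 ± 2.08 in Ocln-KO, edgeR adjusted p = 0.858).

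The 7 assembly factors of complex I, which help to build the complex and are not part of it, did not share a direction. Ndufaf3 and Ndufaf4 fell: Ndufaf3, with 18.0, 15.2 and 17.6 CPM in WT against 11.9, 12.0 and 11.5 CPM in Ocln-KO (log2 fold change -0.52 ± 0.12, edgeR adjusted p = 0.0433), and Ndufaf4, its partner in early assembly (27.6 ± 2.04 and 20.2 ± 1.23 CPM, log2 fold change -0.46, edgeR adjusted p = 0.0402). At the other end, Ndufaf2, which acts at the last steps, had 2.17, 2.55 and 1.48 CPM in WT against 3.58, 2.61 and 2.99 CPM in Ocln-KO (log2 fold change 0.57 ± 0.30, edgeR adjusted p = 0.247), and Ndufaf5 had 4.63 ± 0.223 and 6.32 ± 0.811 CPM (0.45 ± 0.18, edgeR adjusted p = 0.156). Neither passed the test, and the Ocln-KO libraries of both lay above the WT libraries. The median over the 7 was -0.02 and turned to 0.07 with total counts.

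Complex II, succinate dehydrogenase, is also an enzyme of the citric acid cycle and has no subunit from the mitochondrial genome. Of its 4 genes 1 fell, beside 5.04% of all tested genes, and 1 call in 4 genes cannot be told from that share. Sdhd, the small membrane anchor whose upstream window holds the ETS letters, had 65.1, 59.9 and 66.6 CPM in WT against 50.4, 48.1 and 46.0 CPM in Ocln-KO (log2 fold change -0.41 ± 0.09, edgeR adjusted p = 0.0337). Sdha, the flavoprotein that oxidises succinate, had 231, 224 and 229 CPM in WT against 190, 203 and 215 CPM in Ocln-KO, groups that did not overlap but differed little (log2 fold change -0.17 ± 0.08, edgeR adjusted p = 0.224). Sdhb, the iron-sulfur subunit, had 24.2 ± 1.32 and 19.9 ± 5.30 CPM, with Ocln-KO replicate 3 within the WT range (log2 fold change -0.28, edgeR adjusted p = 0.375). Sdhc, the other anchor, had 35.2 ± 1.90 and 32.9 ± 0.386 CPM (log2 fold change -0.10, edgeR adjusted p = 0.490).

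In complex III, which moves electrons from ubiquinol to cytochrome c, 3 of 8 genes fell (5.04% over all tested genes). The median log2 fold change was -0.44. Uqcrq, a small subunit near cytochrome b, had 84.2, 77.1 and 92.6 CPM in WT against 44.4, 56.4 and 40.0 CPM in Ocln-KO (log2 fold change -0.85 ± 0.14, edgeR adjusted p = 0.0205). Uqcr10, a small accessory subunit, had 62.2, 56.6 and 64.1 CPM against 41.8, 43.7 and 32.1 CPM (log2 fold change -0.64 ± 0.13, edgeR adjusted p = 0.0307). Uqcrfs1, the Rieske iron-sulfur protein that takes electrons from ubiquinol, had 57.0, 53.2 and 53.3 CPM against 45, 40.6 and 43.2 CPM (log2 fold change -0.34 ± 0.08, edgeR adjusted p = 0.0465). In all 3 genes the genotypes were separate, and Ocln-KO replicate 2 was nearest to WT for Uqcrq and Uqcr10 and farthest for Uqcrfs1. The core proteins did not pass: Uqcrc2 had 110 ± 4.09 and 101 ± 6.09 CPM (log2 fold change -0.13 ± 0.08, edgeR adjusted p = 0.332). Its partner Uqcrc1 had only 1.95, 0.352 and 2.42 CPM in WT against 0.343, 0.628 and 0.444 CPM in Ocln-KO. WT replicate 2 was as low as Ocln-KO, and the log2 fold change of -1.74 ± 0.68 did not pass (edgeR adjusted p = 0.139). Per kilobase of exon, Uqcrc1 stood at 0.953 RPKM in WT and Uqcrc2 at 58.2, although the 2 proteins are present in equal numbers in the complex; no overlapping exon or near-identical copy of Uqcrc1 is annotated, and the cause was not tested.

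**Figure D2:**
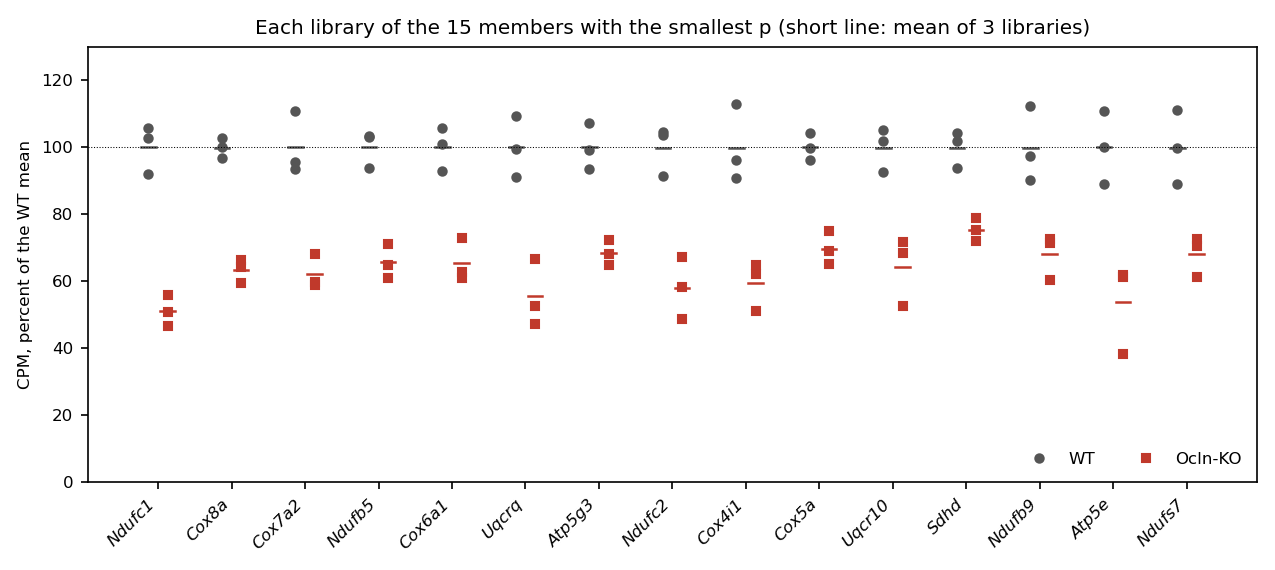
CPM of each library as a percentage of the WT mean for the 15 members with the smallest p, ordered by p (circles WT, squares Ocln-KO, short lines means of 3 libraries). In each gene the 3 squares lie below the 3 circles, and the Ocln-KO means run from 51.0% (Ndufc1) to 75.4% (Sdhd) of the WT mean.

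In complex IV, cytochrome c oxidase, 7 of 18 tested genes fell (5.04% over all tested genes), all among the 11 ubiquitous subunits. Their median was -0.52 and their summed level was 1900, 1775 and 1951 CPM in WT against 1250, 1374 and 1167 CPM in Ocln-KO. Cox4i1, the ubiquitous isoform of subunit 4 and the most abundant member, had 719, 680 and 844 CPM in WT against 464, 486 and 382 CPM in Ocln-KO (log2 fold change -0.75 ± 0.13, edgeR adjusted p = 0.0225). Cox8a had 218, 212 and 205 CPM against 141, 136 and 126 CPM (log2 fold change -0.66 ± 0.08, edgeR adjusted p = 0.0112). Cox7a2 had 93.0, 78.3 and 80.1 CPM against 50.2, 57.0 and 49.3 CPM (log2 fold change -0.68 ± 0.10, edgeR adjusted p = 0.0174). These 3 are the forms of subunits 4, 8 and 7A that most tissues use, and none of their Ocln-KO libraries reached the lowest WT library. Cox6a1, the ubiquitous subunit 6A with the NRF1 letters shown above, had 94.0, 86.5 and 98.5 CPM in WT against 56.8, 67.7 and 58.5 CPM in Ocln-KO (log2 fold change -0.61 ± 0.10, edgeR adjusted p = 0.0205). Cox5a, a matrix-side subunit, had 46.6, 44.6 and 43.0 CPM against 29.1, 33.6 and 30.8 CPM (log2 fold change -0.52 ± 0.09, edgeR adjusted p = 0.0228). Its partner Cox5b had 23.8 ± 0.869 and 20.3 ± 1.83 CPM, separate but closer, and did not pass (log2 fold change -0.23 ± 0.11, edgeR adjusted p = 0.198). The other calls were Cox6b1 (133 ± 3.18 and 99.7 ± 8.67 CPM, log2 fold change -0.42) and Ndufa4 (65.9 ± 6.14 and 41.0 ± 8.99 CPM, log2 fold change -0.69).

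The tissue-restricted isoforms of complex IV were scarce in both genotypes. Of the 8, 6 were tested and 0 passed. Cox6b2, the testis form of subunit 6B, was the most abundant of them at 2.90 ± 0.86 CPM in WT against 2.82 ± 1.23 in Ocln-KO (log2 fold change -0.04, edgeR adjusted p = 0.956). Cox4i2, found mainly in lung, had 0.454, 0.586 and 1.29 CPM against 0.343, 0.973 and 0.0296 CPM (log2 fold change -0.80 ± 0.90, edgeR adjusted p = 0.603). Cox7a1, Cox7b2, Cox8c and the hypoxia-induced Ndufa4l2 had WT means of 0.450, 0.428, 0.837 and 1.19 CPM and log2 fold changes of -0.30, -0.17, -0.27 and -0.44. As a share of its family, per exonic length, Cox6b2 made up 1.79% ± 0.555 of subunit 6B in WT and 2.26% ± 0.768 in Ocln-KO (SD, n = 3; exact permutation test, two-sided, p = 0.60). Cox8b with Cox8c made up 0.506% ± 0.214 and 0.809% ± 0.438 of subunit 8 (exact permutation p = 0.400). In the family of subunit 7A, Cox7a2l was counted with Cox7a2 as a ubiquitous form. In the families of subunits 4, 6A, 7A and 7B the WT shares were 0.0978%, 0.00765%, 0.264% and 1.09%, and none of the 6 comparisons passed (Benjamini-Hochberg adjusted exact p = 1.0 for each), in a design whose smallest exact p is 0.1.

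Complex V, ATP synthase, had 17 genes, of which 3 fell (5.04% over all tested genes), with a median of -0.31. Atp5e, the epsilon subunit of the F1 head, had 41.0, 36.4 and 45.3 CPM in WT against 15.6, 25.1 and 25.3 CPM in Ocln-KO (log2 fold change -0.89 ± 0.19, edgeR adjusted p = 0.0339), with replicate 1 well below the other Ocln-KO libraries. Atp5g3, 1 of the 3 genes that encode the same c subunit of the rotor ring, had 88.5, 83.3 and 95.5 CPM against 60.8, 64.5 and 57.9 CPM (log2 fold change -0.54 ± 0.09, edgeR adjusted p = 0.0205). The other c genes did not pass: Atp5g1 had 38.5 ± 3.8 and 33.0 ± 5.51 CPM, and Atp5g2 2.38 ± 0.235 and 2.22 ± 0.203 CPM. The third call was Atp5f1, the b subunit of the stalk (121 ± 11.2 and 91.1 ± 5.04 CPM, log2 fold change -0.40). The large F1 subunits missed the threshold with small, even differences. Atp5a1 (alpha) had 466, 460 and 507 CPM in WT against 372, 373 and 425 CPM in Ocln-KO (log2 fold change -0.29 ± 0.10, edgeR adjusted p = 0.0941). Atp5b (beta), the catalytic subunit, had 441, 432 and 476 CPM against 357, 364 and 369 CPM (log2 fold change -0.31 ± 0.09, edgeR adjusted p = 0.0622). Atp5c1 (gamma), the rotor shaft, had 130 ± 8.64 and 107 ± 8.81 CPM (log2 fold change -0.28, edgeR adjusted p = 0.104). In all 3 the genotypes were separate. Atp5k, the e subunit that joins ATP synthase into dimers, had the highest fold change of the set, with 5.03, 4.84 and 6.76 CPM in WT against 9.48, 11.8 and 5.98 CPM in Ocln-KO; replicate 3 overlapped WT, the test did not pass (log2 fold change 0.71 ± 0.27, edgeR adjusted p = 0.133), and an annotated pseudogene copy leaves the assignment of its reads uncertain.

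The calls not described so far were Ndufs4, Ndufa2, Ndufb11 and Ndufa1, all accessory subunits of complex I, with log2 fold changes of -0.37, -0.70, -0.50 and -0.45. These, with Cox6b1, Ndufa4, Ndufaf4, Uqcrfs1, Atp5f1 and Ndufaf3, complete the 25 and ranked behind the 15 with the smallest p; those that the rule for named genes does not cover are named after their values were seen. Their edgeR adjusted p-values ran from 0.0351 (Cox6b1) to 0.0465 (Uqcrfs1), so they stood just inside the threshold, and the nearest outside it were Ndufa6 and Ndufb6 at 0.0526. No gap in the p-values separates the called members from the next ones.

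Per kilobase of exon, complex IV reached the highest levels. RPKM was computed as CPM divided by the length of all annotated exons of the gene. Cox4i1 stood at 977 ± 112 RPKM in WT, followed by Cox8a at 385 ± 12.1 and Cox6c at 353 ± 23.3, which did not differ from Cox8a beyond their spread. Atp5b was at 235 ± 12.1, Cox6b1 at 215 ± 5.15 and Ndufa1, a small membrane-arm subunit, at 208 ± 9.59, the latter 2 within each other's spread. At the low end, apart from the restricted isoforms and the low genes named above, were Ndufaf6 at 2.45 ± 0.272 RPKM, Ndufaf2 at 3.05 ± 0.798 and Atp5g2 at 3.25 ± 0.321; the subunits Cox7c at 6.71 ± 0.437, Ndufb4 at 5.42 ± 2.20 and Ndufab1 at 5.34 ± 0.739 each have annotated pseudogene copies that could take reads. Levels of genes with such copies are uncertain. Ndufb2, also a subunit, stood at 5.59 ± 0.748 RPKM and has no near-identical copy annotated. Ndufab1 and Ndufb2 had 23.4 and 24.4 CPM in WT, divided here by 4387 and 4375 exonic bases. Of the 21 members with a near-identical pseudogene copy, 2 fell (median -0.29), and of the 68 tested members without one 23 fell (median -0.37). Over all tested genes 5.04% fell. The 2, Atp5f1 and Ndufb11, carry the same limit on their reads as Atp5k. Of the 24 tested members with exonic overlap of another gene 7 fell (median -0.42), and of the 65 without 18 fell (median -0.31). Among the 7, Ndufb9 is overlapped on its own strand over 28.6% of its exonic bases, and Cox5a on the other strand over 41.7%.

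**Figure D3:**
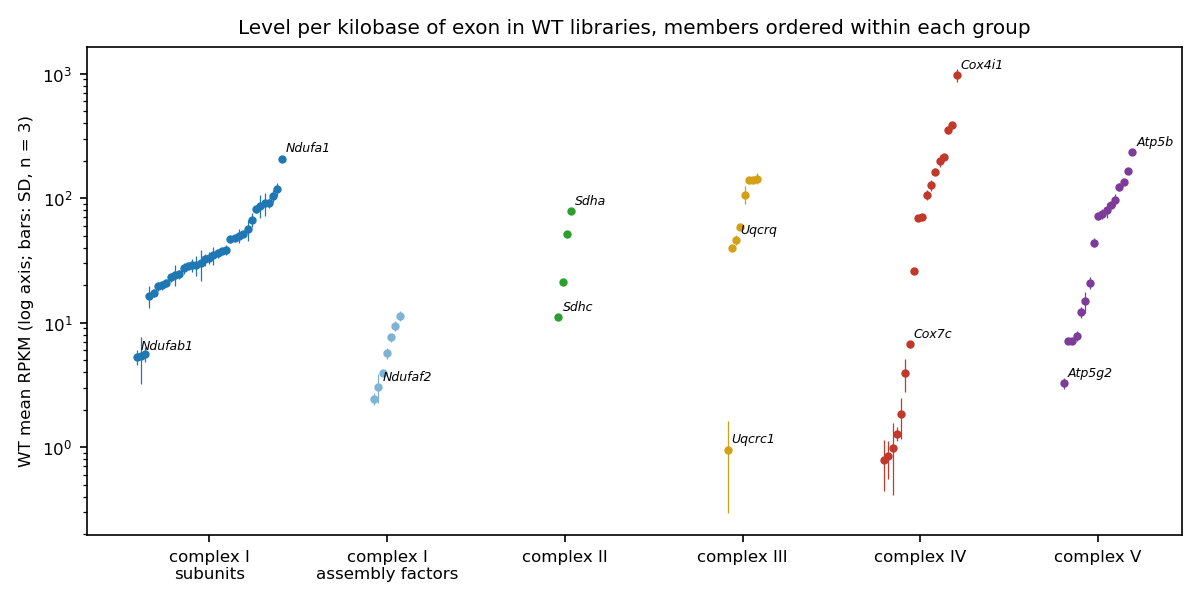
Mean RPKM (CPM per kilobase of exon, log axis) of each tested member in the 3 WT libraries, ordered within each complex, with the SD as bars. Cox4i1 stands highest at 977 RPKM, the assembly factors lie below most subunits, and Uqcrc1 lies apart from the rest of complex III at 0.953 RPKM.

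Chain genes are short, 46 of the 92 with under 1000 exonic bases, and short genes were a little lower in Ocln-KO over the whole table. The Spearman correlation of the log2 fold change with exonic length was 0.14 over 17566 tested genes with a length and 0.24 over the 89 members, which share the same 6 libraries. Members under 1000 bases had 16 calls of 43 tested (median -0.44), and members of at least 1000 bases had 9 of 46 (median -0.29). The share of all tested genes that fell was 5.04%. With the length offset the correlation over the members was 0.10, and the medians of the shorter and longer members were -0.32 and -0.24. The 12 calls left in that fit were Ndufc1, Ndufb5, Ndufc2, Uqcrq, Cox8a, Cox7a2, Cox6a1, Cox4i1, Cox5a, Atp5g3, Atp5e and Ndufaf4. Cox4i1 had a log2 fold change of -0.62 in it, Ndufc1 of -0.86 and Uqcrq of -0.78. Over complex IV 5 calls were left, over complex I 3 among the subunits and 1 among the assembly factors, over complex V 2, over complex III 1 and over complex II 0.

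**Figure D4:**
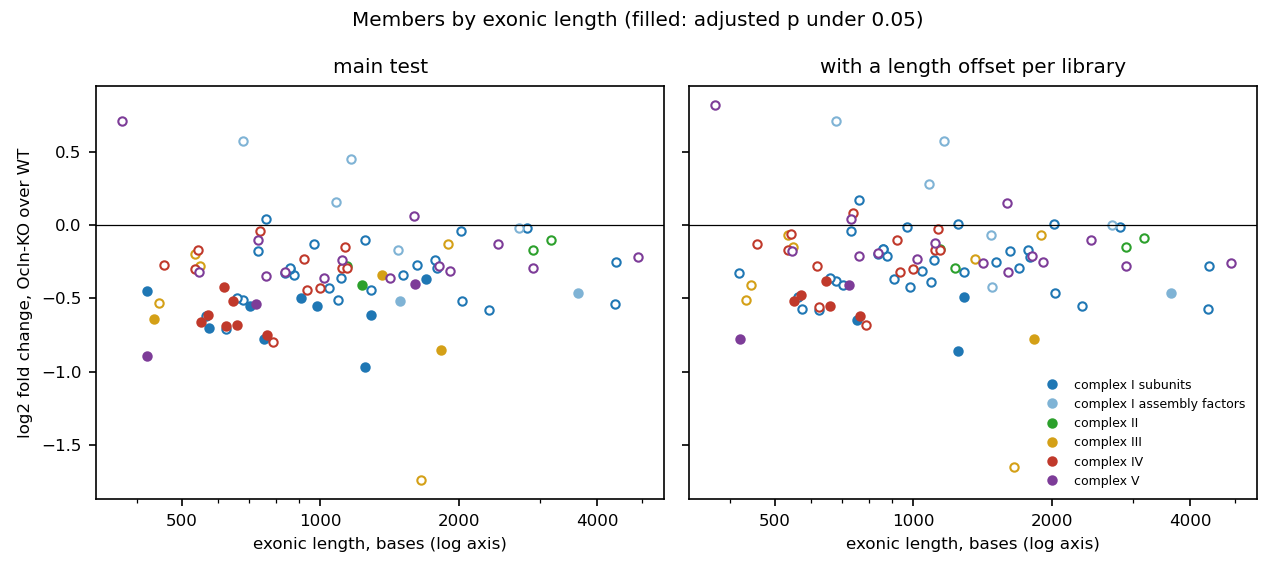
Log2 fold change (Ocln-KO over WT) of the 89 tested members against exonic length in bases (log axis), in the main test and with a length offset per library; filled points have an adjusted p under 0.05 and colours give the complex. The median moves from -0.34 to -0.25 and the filled points from 25 to 12, while 78 of 89 points still lie below 0 on the right.

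The subunits encoded by the mitochondrial genome, which are transcribed inside the organelle, were read beside the nuclear ones. Of the 13 genes, 4 fell and 0 rose, with a median log2 fold change of -0.50. Over all tested genes 5.04% fell and 3.91% rose, with a median of 0.01. COX1, the catalytic subunit of complex IV, had 16883, 17317 and 14624 CPM in WT against 9109, 10463 and 7313 CPM in Ocln-KO (log2 fold change -0.86 ± 0.17, edgeR adjusted p = 0.0275). CYTB, of complex III, had 2849, 2945 and 2290 CPM against 1565, 1612 and 1799 CPM (log2 fold change -0.70 ± 0.13, edgeR adjusted p = 0.0259). ND4, of complex I, had 1486, 1589 and 1028 CPM against 738, 849 and 890 CPM (log2 fold change -0.73 ± 0.17, edgeR adjusted p = 0.0428). These 3 had separate genotypes, with WT replicate 3 the lowest WT library in each. COX3, the fourth call, had only 17.3 ± 1.37 and 9.50 ± 1.15 CPM (log2 fold change -0.86, edgeR adjusted p = 0.0205), and COX2, ATP6, ATP8, ND3 and ND4L were below 9 CPM in each library. Apart from ATP8, these low genes have a nuclear copy annotated as a pseudogene, as do COX1, ND2, ND4 and ND5, so their counts may be incomplete. ND1, ND2, ND5 and ND6 had log2 fold changes of -0.42, -0.50, -0.06 and -0.21 and did not pass, and the 2 low subunits of complex V, ATP6 and ATP8, had 0.02 and 0.22. All 13 together took 21933 to 27503 CPM in WT against 14112 to 17057 CPM in Ocln-KO.

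Cytochrome c1 (Cyc1), the electron-carrying subunit of complex III that the symbol rule does not cover, had 39.4, 33.5 and 40.3 CPM in WT against 26.7, 28.5 and 27.0 CPM in Ocln-KO (log2 fold change -0.46 ± 0.10, edgeR adjusted p = 0.0367). Cytochrome c itself (Cycs) had 12.3 ± 0.764 and 10.8 ± 1.13 CPM, overlapping between genotypes (log2 fold change -0.19, edgeR adjusted p = 0.404), and the testis form Cyct stayed under 0.6 CPM in each library and was not tested.

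Among 12 regulators of mitochondrial biogenesis, 1 fell and 1 rose, and the median was 0.05; so few calls are near the shares of all tested genes (5.04% lower and 3.91% higher). Ppargc1a, the coactivator PGC-1α that raises transcription of chain genes, had 9.36, 10.3 and 7.97 CPM in WT against 5.36, 4.55 and 2.81 CPM in Ocln-KO (log2 fold change -1.12 ± 0.26, edgeR adjusted p = 0.0400). Its libraries were separate, and Ocln-KO replicate 3 was the lowest; the call was lost when any WT library or Ocln-KO replicate 2 was left out. Esrra, which encodes the receptor ERRα, had 25.5, 24.5 and 28.0 CPM against 20.8, 18.5 and 15.8 CPM, just outside the threshold (log2 fold change -0.50 ± 0.13, edgeR adjusted p = 0.0515). Yy1, a zinc finger factor with many targets beside mitochondrial genes, had 84.5, 79.2 and 80.0 CPM in WT against 105, 101 and 104 CPM in Ocln-KO (log2 fold change 0.34 ± 0.08, edgeR adjusted p = 0.0375); this call was lost when any 1 library was left out (edgeR adjusted p = 0.0544 to 0.120), with the length offset (0.0631) and without a count filter (0.0543). Nrf1, which encodes the factor NRF1, had 30.8 ± 1.09 CPM in WT against 39.6 ± 4.0 in Ocln-KO and did not pass (log2 fold change 0.36, edgeR adjusted p = 0.0648), although its libraries were separate. The GABP subunits Gabpa and Gabpb1 had log2 fold changes of 0.18 and 0.27, the coactivators Ppargc1b and Pprc1 0.16 and -0.03, and the mitochondrial transcription genes Tfam, Tfb1m, Tfb2m and Polrmt -0.09, -0.01, 0.11 and -0.04, none past the threshold.

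Lists of other mitochondrial genes had negative medians, beside 0.01 over all tested genes, of which 5.04% fell. Of 44 tested assembly factors outside the symbol rule 4 fell and 0 rose (median -0.23). Cox14, an assembly factor for COX1, had 54.6, 47.8 and 58.9 CPM in WT against 31.2, 30.4 and 23.8 CPM in Ocln-KO (log2 fold change -0.92 ± 0.13, edgeR adjusted p = 0.0148), Cox18, which inserts COX2 into the membrane, had 21.1 ± 0.92 and 12.6 ± 1.53 CPM (-0.75, edgeR adjusted p = 0.0225), and Nubpl, an iron-sulfur factor of complex I, had -0.59 (edgeR adjusted p = 0.0449). Of 76 tested genes of the mitochondrial ribosome 10 fell and 0 rose (median -0.33), with Mrps11 at -0.85, Mrps35 at -0.62 and Mrps34 at -0.57. Of 20 genes of the outer membrane, import and carriers 7 fell and 0 rose (median -0.30). Slc25a4, the carrier that exchanges ADP and ATP, had 154 ± 19.0 and 104 ± 6.71 CPM (log2 fold change -0.58, edgeR adjusted p = 0.0268), Phb (prohibitin) -0.84 and Tomm40, the import channel, -0.57. Of 18 genes of pyruvate dehydrogenase and the citric acid cycle 1 fell, Suclg2 (72.0 ± 5.09 and 51.9 ± 5.29 CPM, log2 fold change -0.47, edgeR adjusted p = 0.0370), with a median of -0.20 over the list; 1 of 18 is near the 5.04% of all tested genes. Of 12 genes of coenzyme Q synthesis Coq9, a synthesis factor (-0.68), and Coq10a, which binds coenzyme Q (-0.45), fell, and the median was -0.09. No rise was called in these 5 lists, and no list was tested against the others.

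**Figure D5:**
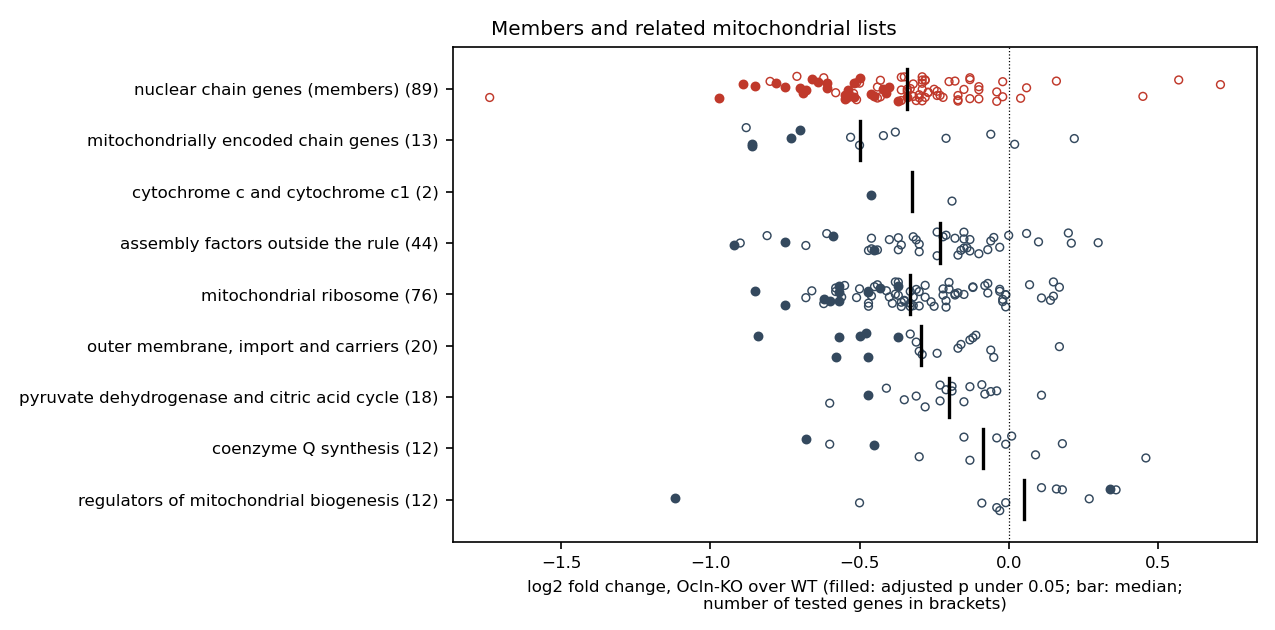
Log2 fold change (Ocln-KO over WT) of the tested members and of 8 related lists, 1 point per gene, with vertical bars for medians and filled points for an adjusted p under 0.05. Medians run from -0.50 for the mitochondrially encoded genes, through -0.34 for the nuclear chain genes and -0.33 for the mitochondrial ribosome, to 0.05 for the regulators.

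Markers of several cell types were read beside the members. Over all tested genes 5.04% fell and 3.91% rose, and single calls in such short lists cannot be told from these shares. Of the 10 clear cell markers 9 were tested, and 8 had a lower and 1 a higher fold change (0.21). Of the 9, 5 fell (median -0.79), among them the proton pump subunit Atp6v0d2 (log2 fold change -1.56) and the clear cell factor Foxi1 (-0.77). The summed level of the 10 was 318, 291 and 397 CPM in WT against 177, 186 and 136 CPM in Ocln-KO, or 49.6% of the WT mean, with Slc4a9 near 0 in all libraries. The 7 macrophage markers had 0 calls and a median of 0.60, with a summed level of 173 to 207 CPM in WT against 216 to 390 CPM in Ocln-KO. Of the 7 lymphocyte markers 3 were tested, with 0 calls and a median of 1.27, and their summed level was 2.35 to 2.72 CPM in WT and 4.36 to 8.58 in Ocln-KO. Of the 5 basal cell markers 1 rose (median 0.26, 224 to 228 CPM in WT and 228 to 273 in Ocln-KO), and of the 5 tested striated muscle markers 1 rose (median 0.36, 15.1 to 18.5 CPM in WT and 13.5 to 24.7 in Ocln-KO). The 5 endothelial markers and the 1 tested brown adipocyte marker had 0 calls. Of the 7 smooth muscle markers 2 rose (median 0.52, 1212 to 1465 CPM in WT against 1649 to 2225 in Ocln-KO). Of the 10 tested principal cell markers 1 fell and 1 rose (median 0.04, 28228 to 33816 CPM in WT against 19948 to 36440 in Ocln-KO). The 14 sperm markers had 0 calls and a median of 0.01, but a summed level of 200 CPM in Ocln-KO replicate 3 against 506 to 670 CPM in the other libraries. Of the 5 blood markers 1 fell (median -1.90, 21.9 to 49.6 CPM in WT against 6.04 to 13.2 in Ocln-KO), and the 6 adipocyte markers, with 0 calls, had a median of -1.74 and a summed level of 32.6 to 41.7 CPM in WT against 27.9 to 28.9 in Ocln-KO. The part of these markers in the lower level of the chain genes was not tested.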

How the data were processed

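Whole epididymis was measured by RNA-seq in 3 WT and 3 Ocln-KO libraries. According to the methods and the submitters' processing notes, Trizol-extracted RNA was freed of rRNA and turned into stranded paired-end libraries, whose reads were aligned to GRCm38 with HISAT2 2.0.4 and assigned to genes with HTSeq. The table the authors deposited holds raw counts per gene and library, not normalized. Strand setting and the handling of reads with several alignments are not given in the sources used here. An extraction label names prefrontal cortex, while the tissue label and the methods give epididymis. All columns were matched to samples by name, with 0 unmatched.

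The main test was that of edgeR 4.0.16 (R 4.3.3): filterByExpr by genotype (19691 genes kept of 32046 with a count), TMM factors, glmQLFit and glmQLFTest, and Benjamini-Hochberg adjusted p-values over the whole table. Calls have an adjusted p under 0.05, SEs are the log2 fold change over the square root of F, and the fold threshold of 2 (0.5 when lower) follows the study's methods. Total counts ran from 30646424 to 38870780, where 3 counts equal 0.0802 to 0.0942 CPM, which covers counting error only. Exonic lengths and near-identical copies (at least 95% identity over 150 bases) come from GENCODE M21, with an entry for all 92 members, Atp5sl as Dmac2. Alternatives were DESeq2 1.42.0, limma-voom 3.58.1, other scalings and filters, a replicate block, a length offset, and leaving out each library. The main, DESeq2, limma-voom and length offset fits were run on simulated data with a fold change of 2, larger than that of any called member. The simulated data had no length trend and no pairing, so they say nothing on these or on smaller changes. RPKM values of the study are not analysed here.

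Named are the 15 members with the smallest p among those called, the highest and lowest fold change of each complex, core subunits, restricted isoforms, the mitochondrially encoded genes, cytochrome c genes and regulators, and up to 3 calls each way from each other list. The members, lists and rules were chosen with earlier results of these data known. Single values of a few named genes are not reported here.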

Additional observations from a re-analysis of the deposited data

How the results depend on the processing

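The count of 25 lower members was 27 with limma-voom, 28 without a count filter, and 25 with RLE factors, with factors computed without the 20 most abundant genes, and with at least 10 counts in every library. It was 40 with DESeq2, 16 with total counts, 12 with the length offset, 0 when a fold of 2 was also asked, and 0 to 15 with a library left out. Higher members were 0 in all of these fits but 1 without Ocln-KO replicate 3. No share of all tested genes is given for limma-voom, RLE factors, factors without the 20 most abundant genes or the other count filters. Their counts thus have no baseline. Lower calls with a library left out were 0 to 6 for complex I subunits, 0 to 1 for its assembly factors and for complex II, 0 to 2 for complexes III and V, and 0 to 7 for complex IV. With DESeq2, complex I subunits had 20 calls, complex V 5, other assembly factors 8, the mitochondrial ribosome 21, regulators 2, and pyruvate dehydrogenase and the citric acid cycle 3. With total counts, complex I assembly factors, complex II, the cytochromes and the citric acid cycle list had 0, other assembly factors 2, outer membrane, import and carriers 4, and coenzyme Q synthesis 1. With the length offset, complex I subunits had 3, its assembly factors 1, complex II 0, complex III 1, the cytochromes 0 and coenzyme Q synthesis 1. Without a count filter, complex I assembly factors had 1 and regulators 2. Regulators and the citric acid cycle list each had 2 with limma-voom and with at least 10 counts in every library. With a library left out, the related lists had 0 to 4 (mitochondrially encoded), 0 (cytochromes), 0 to 2 (other assembly factors, regulators, citric acid cycle), 0 to 5 (outer membrane, import and carriers), 0 to 1 (coenzyme Q synthesis) and 0 to 7 (mitochondrial ribosome).

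The medians of all members and of each complex stayed negative in all of these fits, apart from that of the complex I assembly factors, which was 0.07 with total counts, 0.00 with the length offset and -0.13 to 0.14 with a library left out. With the length offset the median was -0.25 over all members, -0.31 in complex I subunits, -0.32 in complex III and -0.21 in complex V. With total counts it was -0.35 in complex III and -0.22 in complex V, and the log2 ratio of the summed level was -0.33 in place of -0.41. With a library left out, medians ran from -0.42 to -0.29 over all members, -0.55 to -0.36 in complex I subunits, -0.29 to -0.11 in complex II, -0.51 to -0.39 in complex III, -0.56 to -0.36 in complex IV and -0.35 to -0.24 in complex V, and the summed log2 ratio from -0.45 to -0.38. The differences in isoform share, in percentage points, ran from -0.0582 to 0.0351 (subunit 4), -0.00765 to 0.0130 (6A), 0.0326 to 0.756 (6B), -0.0590 to 0.0796 (7A), -0.399 to 0.450 (7B) and 0.10 to 0.535 (8).

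Replicate numbers 1 to 3 are shared by WT and Ocln-KO. Same-numbered libraries did not deviate together (correlations of -0.0525, -0.0315 and -0.00256). With 3 libraries per genotype this cannot show whether the mice were paired, and the methods speak of 3 pairs of mice. With the replicate block 0 members were called over all and in each complex, and 0 genes of each related list, while 49 members were lower at an unadjusted p under 0.05. Neither count has a share of all tested genes beside it.

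Named genes whose log2 fold change was near 0 or whose counts were low turned sign without passing any test. With total counts the log2 fold change was 0.04 for Cox6b2, 0.03 for ND5, 0.06 for Ndufs1, 0.04 for Polrmt, 0.05 for Pprc1 and 0.07 for Tfb1m, and with the length offset 0.08 for Cox6b2, 0.01 for ND5 and 0.09 for Tfb1m. With a library left out, ranges that include a turn of sign were -0.24 to 0.26 for ATP6, -0.06 to 0.66 for ATP8, -0.46 to 0.16 for Cox6b2, -0.75 to 0.07 for Cox7a1, -1.21 to 0.25 for Cox7b2, -1.04 to 0.27 for Cox8c, -0.80 to 0.15 for ND3, -0.05 to 0.11 for Ndufb3, -0.09 to 0.03 for Ndufs1, -0.24 to 0.09 for ND5, -0.13 to 0.04 for Polrmt, -0.13 to 0.05 for Pprc1 and -0.11 to 0.14 for Tfb1m. Of 1150 alternative fits of named genes, 906 kept direction and call, 198 lost the call, 11 gained it and 35 turned sign. The cause of these changes was not tested. Tissue-restricted isoforms and the low mitochondrially encoded genes had few counts, and why they were low was not tested.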

Other observations

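The symbol rule left out 9 listed pseudogenes of chain genes whose symbols contain "-ps". They held few counts, from 0 to 71 in a library: Atp5l2-ps had 31, 42 and 71 counts in WT and 23, 28 and 40 in Ocln-KO, Atp5l-ps1 had 26, 22 and 9 against 20, 24 and 47, and Atp5k-ps3 and Atp5k-ps4 had 0 in all libraries. No test was made of these counts.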
